A study of Homo sapiens with 3 samples.

Results

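The BH3-only genes were examined in OCI-Ly10 cells, an established human line of diffuse large B cell lymphoma, after 6 h with MZ1. MZ1 is a bifunctional degrader that links a BET bromodomain ligand to a ligand of the VHL ubiquitin ligase. The 8 members were fixed by name (PMAIP1, BCL2L11, BBC3, BID, BAD, BIK, BMF and HRK) and each was found once among the 15808 genes of the count table. RNA was sequenced in 3 replicate libraries, which form 1 group with the same line, agent and time. Untreated cells were not analysed here, so the values are levels in treated cells and their spread, and no effect of MZ1 was estimated. Neither the dose of MZ1 nor the origin of the replicates is stated in the labels, and where replicates share a culture the p-values reflect technical spread alone.

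BH3-only proteins are the sensors of the mitochondrial death pathway. Each carries a short helix, the BH3 motif, that fits the groove of the anti-apoptotic guardians (BCL2, BCL-XL, MCL1, BCL2A1 and relatives). When the guardians are occupied, or when an activator BH3-only protein engages BAX or BAK directly, these effectors permeabilise the outer mitochondrial membrane and caspases follow. In B cells BIM, the product of BCL2L11, is known for limiting lymphocyte survival, and BH3-mimetic drugs copy the same helix.

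The motif that gives the family its name is shown here for all 8 members, because for 6 of them the annotation also holds coding transcripts without it. Each stretch is 45 bases of coding sequence, 5′ to 3′, taken from the GENCODE release 29 transcripts. Capitals mark 3 codons, those of the conserved leucine, of the small residue that precedes the conserved aspartate, and of the aspartate itself.
PMAIP1: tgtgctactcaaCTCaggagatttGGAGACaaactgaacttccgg
BCL2L11: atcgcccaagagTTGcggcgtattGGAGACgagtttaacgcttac
BBC3: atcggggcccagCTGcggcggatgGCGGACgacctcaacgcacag
BID: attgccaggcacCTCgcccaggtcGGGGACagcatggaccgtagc
BAD: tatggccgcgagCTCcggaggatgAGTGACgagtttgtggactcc
BIK: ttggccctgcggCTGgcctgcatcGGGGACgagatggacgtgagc
BMF: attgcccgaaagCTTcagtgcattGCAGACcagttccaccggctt
HRK: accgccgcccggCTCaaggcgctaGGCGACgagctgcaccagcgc

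On GRCh38 the PMAIP1 stretch lies at chr18:59902661-59902705 on the plus strand and the BCL2L11 stretch at chr2:111150091-111150135 on the plus strand. Those of BBC3 (chr19:47226576-47226620), BID (chr22:17739412-17739456), BAD (chr11:64271619-64271663), BMF (chr15:40104192-40104236) and HRK (chr12:116881167-116881211) lie on the minus strand, and that of BIK (chr22:43127704-43127748) on the plus strand. Every stretch lies within 1 coding exon. The pattern was written to fit the members, and 2.44% of 19499 coding genes hold a match in at least 1 complete coding transcript. Of the complete coding transcripts annotated for BCL2L11, 7 of 14 hold the motif. The figure was 4 of 11 for BID, 4 of 7 for BMF, 2 of 4 for BBC3, 2 of 4 for BAD and 1 of 2 for PMAIP1, while the single such transcript of BIK and of HRK holds it. Gene counts cannot tell the forms apart.

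The libraries differed before any gene is considered. Replicate 1 was the deepest, with 5474462 counts, against 1441246 in replicate 2 and 1314812 in replicate 3. On the CPM scale (counts relative to the TMM-scaled library size) 1 count was worth 0.20, 0.629 and 0.767. Relative to replicate 1, GC-rich genes were lower in replicate 2. In the top GC bin, of 8 bins of equal size, the median difference of log2(CPM + 0.5) was -1.49 for replicate 2 and -0.34 for replicate 3, against 0.32 and 0.057 in the bottom bin. All 7 B cell markers reached 1 CPM in every library, with a summed level of 1354 to 2298 CPM. Of the markers of other cell types, the 1 T cell gene analysed had 0 to 1.40 CPM, the 2 myeloid genes summed to 4.60 to 8.20 CPM and the 1 fibroblast gene had 1.89 to 4.80 CPM. KRT8, a keratin gene and the 1 epithelial marker analysed, was higher, at 45.8, 17.6 and 33.8 CPM in replicates 1, 2 and 3. No erythroid marker was analysed, and the part of other cells in the results was not tested.

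PMAIP1 and BCL2L11 supplied most of the BH3-only transcript in every library. Of all counts of the 8 genes they held 80.4% in replicate 1 (exact Clopper-Pearson 95% interval 78.9 to 81.7%), 91.8% in replicate 2 (89.8 to 93.5%) and 85.2% in replicate 3 (82.4 to 87.7%). Counting error within 1 library is all that these intervals hold. They take each read as independent, which was not tested. PMAIP1 alone held 47.1%, 47.8% and 49.7%, and the 3 intervals overlap. The other shares were less even. BCL2L11 held 33.2% in replicate 1 (31.6 to 34.9%), 44.0% in replicate 2 (40.8 to 47.3%) and 35.5% in replicate 3 (32.0 to 39.1%), so replicate 2 was above replicates 1 and 3. BID held 12.1% in replicate 1, 2.49% in replicate 2 (1.58 to 3.71%) and 4.37% in replicate 3 (2.99 to 6.14%), and the interval of replicate 1 lay above both.

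**Figure D1:**
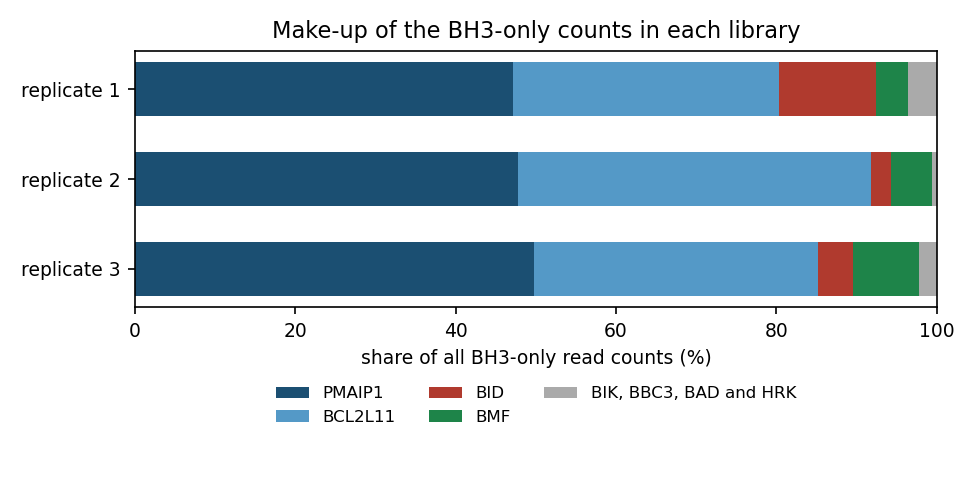
Share of all BH3-only read counts (x axis, %) held by each gene in replicates 1, 2 and 3 (rows), with the 4 lowest genes joined in grey. PMAIP1 takes 47.1% to 49.7% in each library, the BCL2L11 segment is widest in replicate 2 and the BID segment in replicate 1.

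At least 1 CPM in all 3 libraries was measured for 6 of the 8 members, against 68.0% of all genes in the table. In replicates 2 and 3 this level takes only 2 counts. BBC3 and BIK reached it in replicate 2 with 2 counts each (1.26 CPM), less than the 1.89 CPM of 3 counts there. The median over the members was 18.3, 7.86 and 14.6 CPM in replicates 1, 2 and 3, where that over all genes was 8.20, 7.54 and 8.44 CPM. The members spanned a wide range around those medians. PMAIP1 lay at or above 96.7% of all genes by mean CPM and BCL2L11 at or above 95.6%, while BAD and HRK lay at or above 19.6% and 16.3%. In bulk RNA, fewer cells that hold a transcript and less of it per cell cannot be told apart.

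Whether a gene varied between libraries beyond counting noise was tested by chi-square on its counts, with equal expression as the null and Benjamini-Hochberg adjustment over the 10016 genes that averaged 10 counts or more. It called 67.2% of all genes tested, and 5 of the 6 members tested. BAD and HRK were below the count minimum, and BBC3 and BIK passed it only through the deep replicate 1, so this tally is not a result about the family. It was 1 of 4 members without replicate 1, against 33.8% of 8447 genes, 2 of 6 without replicate 2, against 45.2%, and 4 of 6 without replicate 3, against 56.2%. With each library scaled within GC bins it was 5 of 6, against 61.0%.

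Among the activators, BCL2L11 (ENSG00000153094.20, chromosome 2, 111119378 to 111168447, plus strand), which encodes BIM, the BH3-only protein that binds every guardian and can also engage BAX and BAK, had 209.5, 256 and 193 CPM in replicates 1, 2 and 3, from 1048, 407 and 252 counts. Its mean was 219.5 ± 32.4 CPM (SD, n = 3). Replicate 2 was the highest, by 1.32 times over the lowest, and the libraries differed beyond counting noise (chi-square test, adjusted p = 0.000836). Without replicate 2 the adjusted p was 0.360. BCL2L11 differed from replicate 1 by 0.29 in replicate 2 and -0.12 in replicate 3 on the log2 scale. In its GC bin of 1247 genes, 61.3% and 50.6% were lower, so it lay near the middle of the bin. The exons of BCL2L11 overlap those of the lincRNA gene MIR4435-2HG on the opposite strand over 727 bases, 10.9% of its merged exons. MIR4435-2HG had 71.2, 34.6 and 35.3 CPM in replicates 1, 2 and 3, and its part in the BCL2L11 counts was not tested.

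BID (ENSG00000015475.17, chromosome 22, 17734138 to 17774770, minus strand) links death receptors to mitochondria, since caspase-8 cleaves its product into the active form. Its gap between the highest and lowest library was wider than those of PMAIP1, BCL2L11 and BMF. BIK and BBC3, on few counts in replicates 2 and 3, had wider gaps, of 9.70 and 6.20 times. BID had 76.4, 14.5 and 23.8 CPM in replicates 1, 2 and 3, from 382, 23 and 31 counts. Replicate 1 stood above the other libraries, and the highest value was 5.28 times the lowest (chi-square test, adjusted p = 5.60e-24). Without replicate 1 the highest was 1.65 times the lowest and the adjusted p was 0.222. The transcript has 49.7% GC, and in its GC bin of 1248 genes the median difference from replicate 1 was -0.16 in replicate 2 and -0.14 in replicate 3 on the log2 scale. BID differed by -2.36 and -1.66, lower than all but 2.72% and 7.45% of that bin. After each library was scaled within GC bins, BID had 70.9, 14.9 and 24.3 CPM and the adjusted p was 2.88e-20.

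BBC3 (ENSG00000105327.14, chromosome 19, 47220822 to 47232766, minus strand) encodes PUMA, a p53 target that binds every guardian. It had 7.80, 1.26 and 3.84 CPM in replicates 1, 2 and 3, from 39, 2 and 5 counts. The interval of replicate 2, 0.152 to 4.54 CPM (exact Poisson, counting error only), lay below that of replicate 1, 5.54 to 10.7 CPM, and overlapped that of replicate 3. Since BBC3 passed the count minimum only through replicate 1, where it is highest, no test of it is given. Its mean was 4.30 ± 3.29 CPM (SD, n = 3), and 2.62 CPM without replicate 1. At 69.7% GC, BBC3 has the most GC-rich transcript of the family and lies in the top GC bin. In replicate 2 it differed from replicate 1 by -2.24 on the log2 scale. The median of its bin was -1.49 there, and 29.2% of the bin was lower than BBC3. After scaling within GC bins the highest library was 2.22 times the lowest, against 6.20 times before. The exons of BBC3 hold the microRNA gene MIR3190 on the opposite strand, which was not analysed here.

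Of the sensitisers, which act by occupying guardians, PMAIP1 (ENSG00000141682.11, chromosome 18, 59899948 to 59904306, plus strand) was the most abundant and the most even. It encodes NOXA, which binds MCL1 and BCL2A1 and promotes MCL1 turnover. PMAIP1 had 297, 278 and 271 CPM in replicates 1, 2 and 3, from 1485, 442 and 353 counts, with a mean of 282 ± 13.5 CPM (SD, n = 3). The coefficient of variation was 4.80%, and the highest library exceeded the lowest by 1.10 times. The chi-square test detected no difference between libraries at these counts (adjusted p = 0.241). With 37.2% GC it lies in the most GC-poor bin, and after scaling within GC bins it had 321, 246 and 279 CPM and did differ (adjusted p = 6.61e-06). No exon of PMAIP1 overlaps another gene on the opposite strand.

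BMF (ENSG00000104081.12, chromosome 15, 40087890 to 40108892, minus strand), whose product is held at the cytoskeleton by a dynein light chain until it is released, had 24.4, 30.2 and 44.5 CPM in replicates 1, 2 and 3, from 122, 48 and 58 counts. It was lowest in replicate 1, unlike BID, BIK and BBC3, and the highest value was 1.82 times the lowest (chi-square test, adjusted p = 0.00142). The adjusted p was 0.196 without replicate 1 and 0.285 without replicate 3. After scaling within GC bins BMF had 18.4, 41.4 and 41.0 CPM, so replicate 3 no longer stood above replicate 2 (chi-square test, adjusted p = 1.72e-08). Its antisense partner BMF-AS1 overlaps 8.46% of the BMF exons and had 0, 7 and 13 counts. Its part in the BMF counts was not tested.

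BIK (ENSG00000100290.2, chromosome 22, 43110748 to 43129712, plus strand), a BH3-only protein of the endoplasmic reticulum, had 12.2, 1.26 and 5.37 CPM in replicates 1, 2 and 3, from 61, 2 and 7 counts. Replicate 2 was the lowest again, and its interval of 0.152 to 4.54 CPM lay below the 9.33 to 15.7 CPM of replicate 1 (exact Poisson). No test is given, for the same reason as for BBC3. The mean was 6.27 ± 5.53 CPM (SD, n = 3), and 3.40 CPM without replicate 1. After scaling within GC bins BIK had 9.21, 1.72 and 4.95 CPM.

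BAD and HRK were near the limit of detection. BAD (ENSG00000002330.12, chromosome 11, 64269830 to 64284704, minus strand), which is inactivated when survival kinases phosphorylate it and 14-3-3 proteins hold it, had 15, 0 and 1 counts in replicates 1, 2 and 3. That is 3.0 CPM in replicate 1, no count in replicate 2, which allows up to 1.89 CPM (3 counts), and 0.767 CPM in replicate 3. Its GC content is 66.3%, and 23.7% of its exons overlap the receptor gene GPR137 on the opposite strand, which had 31, 2 and 4 counts. HRK (ENSG00000135116.8, chromosome 12, 116856144 to 116881441, minus strand), a partner of BCL2 and BCL-XL best known in neurons, had 0, 1 and 3 counts. No count in replicate 1 allows up to 0.60 CPM. Both genes were below the count minimum of the test.

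**Figure D2:**
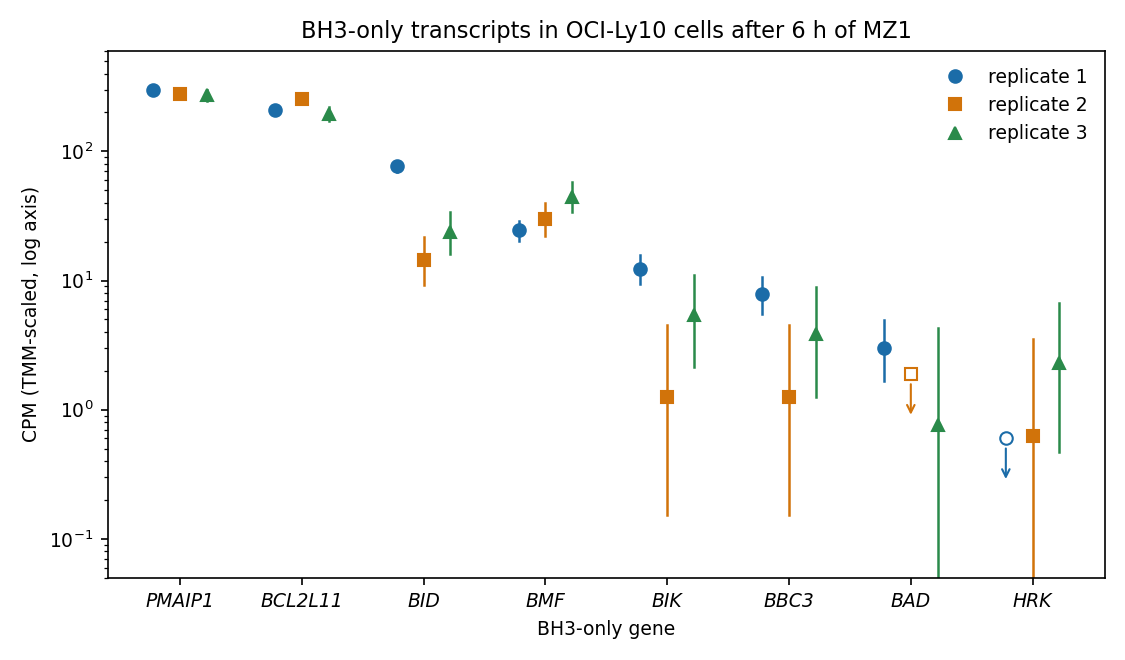
CPM of each BH3-only gene on a log axis (y) in replicates 1, 2 and 3, with bars for the exact Poisson 95% interval, which covers counting error only. Open symbols with arrows mark libraries with no count, drawn at the 3-count limit. PMAIP1 and BCL2L11 sit between 193 and 297 CPM in all libraries, while BID, BIK and BBC3 are highest in replicate 1.

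**Figure D3:**
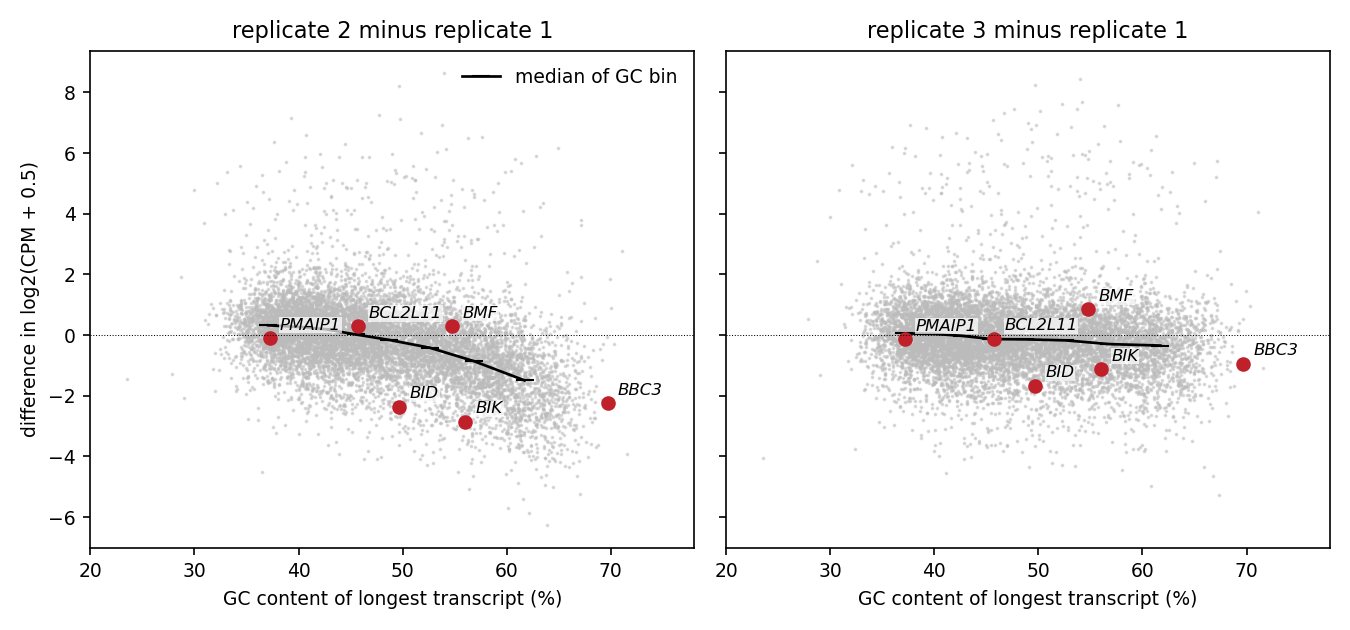
Difference in log2(CPM + 0.5) from replicate 1 (y) against the GC content of the longest transcript (x, %) for replicate 2 (left) and replicate 3 (right). Grey points are genes that averaged 10 counts or more, black marks the median of each of 8 GC bins, and red points are the 6 members above that minimum. BID lies at -2.36 and -1.66, below its bin's medians of -0.16 and -0.14, and BMF lies above its own bin's medians in both panels.

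Transcript length sets how many reads a gene collects, so members were ranked per kb of merged exons. PMAIP1 led with 126 ± 6.05 CPM per kb (SD, n = 3), followed by BCL2L11 at 33.0 ± 4.87, BID at 8.59 ± 7.51, BIK at 6.58 ± 5.80, BMF at 6.06 ± 1.90, BBC3 at 1.35 ± 1.04, BAD at 0.735 ± 0.912 and HRK at 0.143 ± 0.174 CPM per kb. Each neighbour pair was compared as a log2 ratio of (CPM + 0.5) per kb within each library. Neighbours were set by the mean in these same libraries, with the higher gene first. The directions and p-values below are therefore no independent evidence for the order. The test was an exact permutation of the signs, two-sided, whose smallest p over 3 libraries is 0.25. PMAIP1 exceeded BCL2L11 in every library, by 1.94 ± 0.22 (log2) or 3.85-fold. BCL2L11 lay above BID in 3 of 3, by 2.27 ± 1.33. BID, BIK and BMF did not separate beyond their spread on this scale. The ratio of BID to BIK was 0.36 ± 0.52, higher in 2 of 3 libraries, but 1.19 and higher in 3 of 3 when the longest transcript gave the length. That of BIK to BMF was -0.16 ± 1.59, higher in 1 of 3. BMF lay above BBC3 by 2.25 ± 1.31 in 3 of 3 libraries. BBC3 to BAD, at 0.71 ± 0.32, and BAD to HRK, at 2.17 ± 2.29 and 0.81 without replicate 1, rest on few counts and on the pseudocount. In replicate 2, BAD had no count and HRK had 1, so BAD is above HRK there only through the 0.5 CPM added, and with 0.1 CPM added the order of BAD and HRK was no longer the same in all libraries. For the other 4 pairs with 1 direction the exact permutation p was 0.25 (0.35 after adjustment over 7 pairs).

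The guardians give the scale on which BH3-only proteins are usually read. Summed per kb, the 8 members had 203, 173 and 171 CPM per kb in replicates 1, 2 and 3, against 339, 304 and 273 CPM per kb for the 5 guardians analysed. That is 59.9%, 57.1% and 62.8% of the guardian sum, and the share depends on the length scaling. Without length scaling the sums were 630, 581 and 545 CPM for the members, against 936, 1248 and 949 CPM for the guardians. These are RNA sums, and protein levels were not analysed here. The highest guardian per length was BCL2A1 at 179 ± 41.1 CPM per kb, then MCL1 at 67.0 ± 4.77, BCL2 at 42.5 ± 18.9, BCL2L1 (BCL-XL) at 16.3 ± 4.61 and BCL2L2 at 0.606 ± 0.0596 CPM per kb (SD, n = 3). Of the effectors, BAX had 49.3 ± 32.0 and BAK1 2.31 ± 1.29 CPM per kb. BCL2L2 rests on only 14, 4 and 3 counts in replicates 1, 2 and 3, and BAK1 on 40, 8 and 3. BAX was lowest in replicate 2, like BID, BIK and BBC3, with 188, 33.3 and 161 CPM in replicates 1, 2 and 3. BCL2L10 and BOK were not analysed here.

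In 8 pairs of a member with a guardian, or of BID with BAX, log2 ratios per kb were taken within each library. PMAIP1 lay above its partner MCL1 in 3 of 3 libraries, by 0.91 ± 0.15 or 1.88-fold. Without the length scaling the log2 ratio was -0.053, so the order holds per length and not per read. BCL2L11 lay below MCL1 in 3 of 3 libraries, by -1.03 ± 0.30 on the log2 scale, but did not separate from BCL2, at -0.29 ± 0.43, above it in 1 of 3 libraries. That depends on the length used, since BCL2L11 lay below BCL2 in 3 of 3 libraries by -0.60 with the longest transcript and by -1.11 without length scaling. BMF lay below BCL2 by -2.75 ± 0.72 in 3 of 3 libraries. BBC3 lay below BCL2L1 by -3.67 ± 0.74 in 3 of 3 libraries. BAD lay below BCL2L1 and BCL2 in 3 of 3 libraries, but the size of the gap is uncertain, because replicate 2 held no BAD count. In replicate 2 alone, with BAD set at 3 counts, BAD per kb was 9.96-fold lower than BCL2L1 and 58.0-fold lower than BCL2. In replicate 1, where BAD had 15 counts, the gap to BCL2 was smaller. The log2 ratio of BAD there was -3.225 to BCL2L1 and -3.81 to BCL2. The log2 ratio of BAD to BCL2 over the 3 libraries was -6.73, -5.71 and -5.16 with 0.1, 0.5 and 1 CPM added, and -4.66 without replicate 2. BID lay below BAX by -2.52 ± 0.87 in 3 of 3 libraries. The exact permutation p was 0.25 for the 7 pairs with 1 direction and 0.50 for BCL2L11 with BCL2 (0.29 and 0.50 after adjustment over 8 pairs), which with 3 libraries could not pass 0.05.

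**Figure D4:**
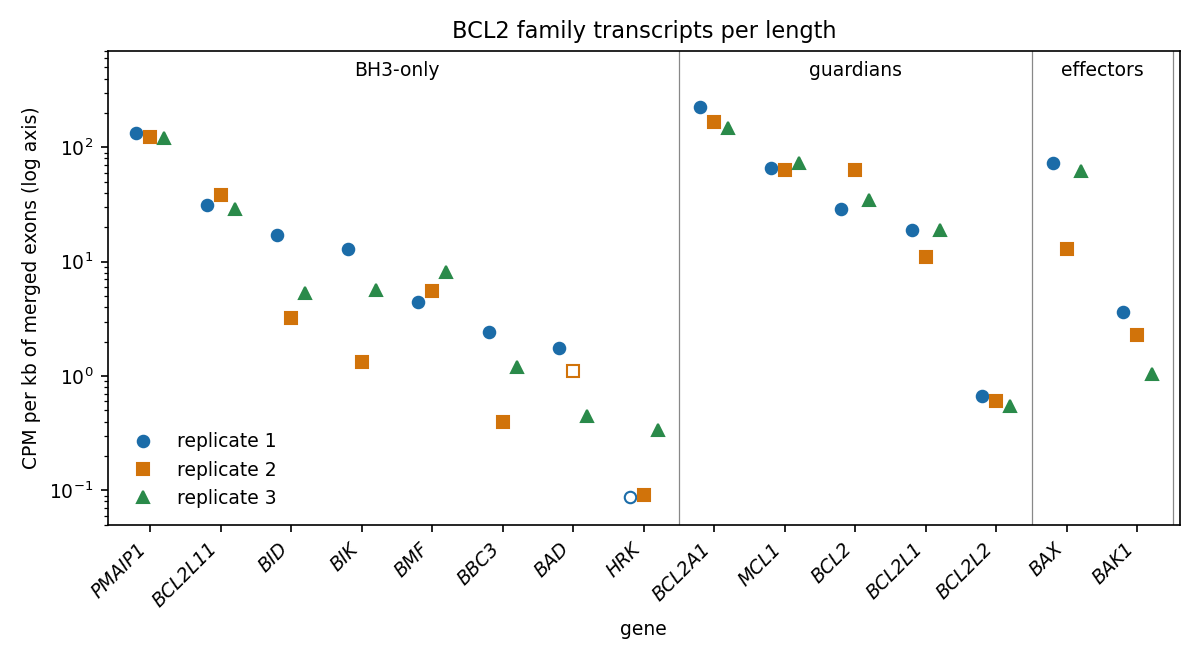
CPM per kb of merged exons on a log axis (y) for the BH3-only genes, 5 guardians and 2 effectors, one symbol per library. Open symbols mark libraries with no count, drawn at the 3-count limit. PMAIP1 lies between BCL2A1 and MCL1, and BCL2L11 overlaps the range of BCL2.

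The levels of factors that act on BH3-only genes and proteins were read beside them. Of 9 upstream transcription factors, 8 reached 1 CPM in every library, against 68.0% of all genes. Of these factors 3 of 7 tested varied between libraries, against 67.2%, and 3 of 7 without replicate 1, against 33.8%. The highest was ATF4, a factor of the integrated stress response, at 406 ± 95.3 CPM (SD, n = 3). The lowest was FOXO3, a factor that can raise BCL2L11 when AKT is inactive, at 1.73 ± 0.596 CPM. FOXO3 rests on only 12, 2 and 2 counts in replicates 1, 2 and 3. Of 14 regulators of BH3-only proteins, 14 reached 1 CPM in every library, against 68.0% of all genes, and 13 of 14 varied, against 67.2%. Without replicate 1 it was 6 of 13, against 33.8%. YWHAE, a 14-3-3 gene, was the highest at 1079 ± 337 CPM. MAPK3, which encodes ERK1, a kinase that marks BIM for degradation, was the lowest at 15.7 ± 18.5 CPM, with 36.8, 2.51 and 7.67 CPM in replicates 1, 2 and 3.

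Genes with the most similar values over the 3 libraries were searched among 7461 genes of at least 10 CPM, by the largest absolute difference of log2(CPM + 0.5). With 3 libraries of unequal depth this is a description. SF3B3 and CCNT1 stayed within 0.087 and 0.15 of PMAIP1. DDX24, LMNB1 and BIRC6 stayed within 0.066, 0.082 and 0.11 of BCL2L11. BID met the minimum mean count of 50 for this search only through replicate 1, where it is highest. Its nearest genes were selected to share that pattern, so they are no evidence for it. They were PPIE, AP2S1 and CSTB, within 0.13, 0.19 and 0.22, and PPIE had 71.4, 13.2 and 24.5 CPM in replicates 1, 2 and 3. TIMM21, PIP4K2B and C5orf15 were nearest to BMF, within 0.029, 0.072 and 0.13.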

How the data were processed

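RNA sequencing of 3 OCI-Ly10 libraries after 6 h of MZ1 was used. Values were raw read counts per gene and, in a second table, log2 CPM, both as deposited by the authors. STAR, edgeR and the hg38 build are named per the submitters' processing notes. The sources used here give no versions, counting tool, strand setting or annotation release, so reads of a gene and of an opposite-strand partner cannot be told apart. Symbols, positions, merged exon lengths and GC content (longest transcript) came from GENCODE release 29 (GRCh38), matched without the ID version for 15668 IDs. Of these, 3781 had the same version in release 29 and 11887 another. Gene IDs are printed as in the counts. Exon lengths behind the counts may therefore differ from those used per kb, and the effect was not tested.

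Counts were scaled with TMM (edgeR 4.0.16, R 4.3.3; factors 0.914, 1.10 and 0.991 for replicates 1, 2 and 3). The chi-square test (SciPy 1.17.1) compares libraries, not conditions, and was tested on simulated data. Those data held counting noise alone outside the genes changed on purpose. They do not show how the p-values behave where libraries differ beyond counting noise, as here. Exact sign-flip tests compared gene pairs. Scaling within GC bins subtracted each bin's median log2 deviation per library. Alternatives were DESeq2 1.42.0 size factors, column totals, GC bins, the deposited log2 values, other filters, lengths, pseudocounts and leaving out each replicate.

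Named genes are all members, guardians and effectors, the highest and lowest gene of each other list, the 3 nearest genes of each member with a mean count of at least 50, and opposite-strand partners. One gene under this rule is not reported here. Members and lists were chosen with earlier results of these data known.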

Additional observations from a re-analysis of the deposited data

How the results depend on the processing

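The tally of members that varied between libraries was 5. It was 5 of 6 under DESeq2 size factors, column totals and scaling within GC bins, against 67%, 67.6% and 61% of all genes. With no filter it was 6 of 8, against 51% of all genes. The member added there, HRK, had 0, 1 and 3 counts, too few for the chi-square approximation to be relied on. With an adjusted threshold of 0.01 the tally was 4 of 6, against 56.7%. It was 3 of 4 with a mean count of at least 50, against 81.1%, and 1 of 4, 2 of 6 and 4 of 6 without replicate 1, 2 and 3. The minimum of 50 was passed by BID only through replicate 1. Within GC bins PMAIP1 replaced BBC3 among the 5. In the order per kb the pairs with 1 direction numbered 4 to 6 of 7 under all alternatives run. The log2 ratio of BIK to BMF ranged from -1.03 without replicate 1 to 0.56, its sign reversed, without replicate 2. Of the partner pairs, 7 or 8 of 8 had 1 direction, not always the same pairs: without length scaling PMAIP1 to MCL1 reversed to -0.053 and left them, while BCL2L11 to BCL2 joined. Levels of 5 members moved by over 1.5 times when 1 replicate was left out. Without replicate 1 the means were 19.9 CPM for BID (38.2 over all), 3.40 for BIK (6.27), 2.62 for BBC3 (4.30) and 0.388 for BAD (1.26), and without replicate 3 it was 0.316 for HRK (0.977). From the deposited log2 values all 8 members were 1.36 to 1.75 times higher. The cause was not tested. No paired analysis was possible because the labels give 1 group. Depth limits BAD, HRK, BBC3 and BIK, which had 7 counts or fewer in replicates 2 and 3.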

Other observations

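Genes with atypical BH3 motifs were also listed. Of 6 such genes, 4 reached 1 CPM in every library, against 68.0% of all genes, and 4 of 4 tested varied between libraries, against 67.2%, and 2 of 4 without replicate 1, against 33.8%. HUWE1, a ubiquitin ligase that binds MCL1 through a BH3 domain, was the highest at 475 ± 239 CPM (SD, n = 3), with 379, 748 and 299 CPM in replicates 1, 2 and 3. Replicate 2 was the highest for HUWE1 and also for BCL2, at 339, 753 and 408 CPM. BCL2L14 was the lowest, with 3, 0 and 2 counts.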
